A study of Mus musculus with 12 samples.

Results

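The genes of MHC class I and class II antigen presentation were followed in livers of the NICD1/Akt mouse model of cholangiocarcinoma (CCA). Members were the genes whose symbol begins with H2-, without pseudogenes, together with B2m, Tap1, Tap2, Tapbp, Nlrc5, Ciita, Cd74, Ctss, Ctsl, Rfx5, Rfxap, Rfxank, Cd1d1 and Mr1. With a minimum of 10 counts over all libraries, 42 of 51 matched genes were kept, of 21807 genes in the count tables, and the 9 others (H2-M1, H2-M9, H2-M11 and 6 genes of the H2-M10 group) had 0 counts in all 12 libraries. By role, 19 members are class I chains including B2m, 2 are class I-like chains, 4 load class I or control it, 4 are class II chains, 8 load class II, 1 controls class II (Ciita) and 3 control both classes. The remaining member, H2-Ke6 (Hsd17b8), encodes a hydroxysteroid dehydrogenase that lies among the H2 genes and has no role in antigen presentation.

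RNA was sequenced from whole liver tissue in 12 libraries, 3 in each of 4 groups. NICD1/Akt livers came from C57BL/6J mice that received plasmids for NICD1 (10 µg per mouse), the intracellular domain of Notch1, for myr-AKT (10 µg per mouse), a membrane-bound active form of AKT, and for the Sleeping Beauty transposase by hydrodynamic tail vein injection (HTVi), and the tissue was taken 2 or 3 weeks later as CCA tumor. Controls were livers of C57BL/6J mice labelled WT, which the growth protocol describes as not injected although each carries a time label of 2 or 3 weeks. The methods describe male mice injected at an age of 5 weeks, and HTVi reaches a part of the hepatocytes, so a tumor sample can hold transformed cells, residual hepatocytes and host immune cells. Total gene counts ranged from 13136892 to 19594839 per library.

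Class I molecules present peptides made in the cytosol. The proteasome cuts proteins, TAP1 and TAP2 carry the peptides into the endoplasmic reticulum, tapasin (Tapbp) holds the empty class I chain there, and the loaded chain leaves with beta-2 microglobulin (B2m). Nearly all nucleated cells carry class I, and NLRC5 drives its transcription. Class II molecules present peptides from endosomes, and their alpha and beta chains are guarded by the invariant chain (Cd74), which cathepsins S and L cut before H2-DM exchanges the last fragment for a peptide and H2-O restrains H2-DM. Class II is mainly a feature of dendritic cells, macrophages and B cells, and CIITA is its master switch. In liver, Kupffer cells, dendritic cells and sinusoidal endothelium carry class II, and epithelial cells can gain it under interferon gamma. CIITA and NLRC5 do not bind DNA by themselves but sit on the RFX complex (RFX5, RFXAP, RFXANK) at the X box and on NF-Y at the Y box of these promoters.

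Promoter windows are printed for the chains with the largest mean level in each class that have an entry in the RefSeq table, since these genes carry most of the counts described here. Each window runs from 250 bases before to 50 bases after the transcription start, 5′ to 3′ on the gene's strand, in build GRCm38.p6, and capitals mark motif matches. The class I set holds B2m (chr2:122147437-122147736, plus strand), H2-Q10 (chr17:35469839-35470138, plus), H2-K1 (chr17:34000298-34000597, minus) and H2-D1 (chr17:35262844-35263143, plus).
B2m: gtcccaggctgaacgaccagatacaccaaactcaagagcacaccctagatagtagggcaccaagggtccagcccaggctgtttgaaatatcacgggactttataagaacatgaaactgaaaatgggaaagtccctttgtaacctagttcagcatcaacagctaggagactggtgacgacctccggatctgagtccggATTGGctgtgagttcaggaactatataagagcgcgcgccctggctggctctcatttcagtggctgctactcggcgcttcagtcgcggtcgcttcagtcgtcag
H2-Q10: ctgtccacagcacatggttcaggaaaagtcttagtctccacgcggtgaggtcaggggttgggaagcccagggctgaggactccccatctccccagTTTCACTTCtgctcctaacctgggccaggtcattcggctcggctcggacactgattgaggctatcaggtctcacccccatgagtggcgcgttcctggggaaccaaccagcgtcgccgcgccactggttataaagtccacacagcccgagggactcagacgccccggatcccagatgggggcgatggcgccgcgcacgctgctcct
H2-K1: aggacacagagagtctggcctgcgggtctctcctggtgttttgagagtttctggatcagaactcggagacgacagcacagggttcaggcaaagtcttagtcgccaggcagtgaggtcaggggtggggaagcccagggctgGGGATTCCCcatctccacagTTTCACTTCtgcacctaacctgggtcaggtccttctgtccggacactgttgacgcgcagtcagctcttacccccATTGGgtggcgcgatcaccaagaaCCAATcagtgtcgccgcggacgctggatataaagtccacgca
H2-D1: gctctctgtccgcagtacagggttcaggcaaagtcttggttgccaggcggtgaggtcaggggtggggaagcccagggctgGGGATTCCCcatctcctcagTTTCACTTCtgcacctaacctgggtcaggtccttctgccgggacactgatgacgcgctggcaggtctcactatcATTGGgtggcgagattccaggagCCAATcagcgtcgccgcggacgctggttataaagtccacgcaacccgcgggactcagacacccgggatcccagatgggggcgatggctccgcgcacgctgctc
The class II set holds H2-Aa (chr17:34287774-34288073, minus strand) and H2-Eb1 (chr17:34305617-34305916, plus).
H2-Aa: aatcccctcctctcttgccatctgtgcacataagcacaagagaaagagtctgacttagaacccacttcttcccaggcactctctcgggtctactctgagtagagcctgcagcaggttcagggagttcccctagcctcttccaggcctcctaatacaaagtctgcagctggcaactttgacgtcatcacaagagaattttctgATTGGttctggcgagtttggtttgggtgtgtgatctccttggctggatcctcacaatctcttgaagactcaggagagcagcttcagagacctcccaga
H2-Eb1: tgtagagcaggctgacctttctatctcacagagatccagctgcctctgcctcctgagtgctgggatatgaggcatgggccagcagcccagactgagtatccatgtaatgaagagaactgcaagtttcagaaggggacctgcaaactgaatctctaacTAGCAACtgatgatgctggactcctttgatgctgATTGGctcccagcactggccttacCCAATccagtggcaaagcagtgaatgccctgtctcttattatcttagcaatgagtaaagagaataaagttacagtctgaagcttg

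The letters searched on both strands were ATTGG (Y box), TAGCAAC (core of the X box), GGGATTCCC (a kappa B site), TTTCACTTC (the interferon response element of class I genes) and TTCNNNGAA (GAS), and no match in the printed windows overlapped another. A Y box stood in windows of 24 of the 30 members with an entry, against 37.4% of all 32851 windows in the table. The interferon response element stood in 7 members (H2-D1, H2-K1, H2-M3, H2-Q10, H2-Q4, H2-Q6 and H2-Q7) against 0.505% of all windows, and the kappa B letters in 4 (H2-D1, H2-K1, H2-Q6 and H2-Q7) against 0.353%. The exact X box letters TAGCAAC stood in 4 members (H2-Eb1, H2-Eb2, H2-Ob and Mr1) against 3.66%, and the GAS letters in 2 (H2-DMb2 and H2-M3) against 8.3%. Variants of these letters were not searched, so a window without a match is not shown to lack an X box. Among the printed class I windows, H2-K1 and H2-D1 held the kappa B, interferon and Y box letters, H2-Q10 held only the interferon letters, and B2m held only a Y box. The members are not independent sequences, since H2-K1, H2-D1 and the H2-Q genes are close copies of each other.

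Levels below are CPM, counts scaled to a common library total, with TMM factors over all 12 libraries, and log2 fold changes and adjusted p-values are from edgeR's quasi-likelihood test with Benjamini-Hochberg adjustment over all genes tested, in a fit of the 6 libraries of a stage. A member was called where the adjusted p was under 0.05. Values of H2-K1, H2-D1 and the H2-Q and H2-T genes are uncertain in so far as near-identical copies can take reads from each other. In bulk tissue, fewer cells of a type and less RNA per cell cannot be told apart. The labels do not state that libraries of a group come from separate mice, and p-values then measure the spread between these samples.

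Of the 12 libraries, 1 went against its label, and most libraries of 2 weeks went against the male mice of the methods. The injected genes were above controls in each NICD1/Akt library at 3 weeks, with Akt1 at 594 to 850 CPM against 74.5 to 85.3 and Notch1 at 324 to 412 against 42.1 to 45.5. At 2 weeks the library labelled control 32 had Akt1 at 381 CPM, against 90.1 and 90.9 in the other controls and 285 to 927 in NICD1/Akt livers, and its cholangiocyte marker sum was 1998 CPM against 66.4 and 68.5. The Y-linked gene Ddx3y had 740 counts in control 32, at most 6 counts in the other 2-week libraries and at least 1120 in each 3-week library, so the 2 stages differ in more than time. Tests of the members at 2 weeks and of the difference between effects are therefore given with and without control 32. Other values, among them those with all 6 controls, include it unless stated.

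The H2 genes themselves also separated the stages, in controls and NICD1/Akt livers alike. H2-Eb1, the class II E beta chain, stood at 28.3, 40.0 and 39.9 CPM in controls at 2 weeks and at 1.12, 0.261 and 1.42 CPM in controls at 3 weeks. In NICD1/Akt livers it stood at 62.2, 31.4 and 92.9 CPM at 2 weeks and at 0.833, 1.29 and 1.16 CPM at 3 weeks. H2-Aa and H2-Ab1 did not separate in this way, with H2-Ab1 at 31.7 to 105 CPM at 2 weeks and 32.2 to 57.9 CPM at 3 weeks. The class I gene H2-T22 went from 71.5 to 121 CPM at 2 weeks to 6.30 to 8.67 CPM at 3 weeks, while H2-T10 went from 1.93 to 5.98 CPM to 25.1 to 27.8 CPM. H2-Bl, another class I gene, stood at 0.266 to 0.850 CPM at 2 weeks and 6.70 to 11 CPM at 3 weeks.

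Of the 42 members, 13 had all 6 libraries at 3 weeks below all 6 at 2 weeks, against 4.83% of the 15495 genes with at least 10 counts, and 2 (H2-T10 and H2-Bl) had them above, against 4.01%. The pseudogene H2-Ea-ps, no member and chosen after its values were seen, had 0 counts in all 6 libraries at 2 weeks, which allows up to 3 counts a library, and 8, 9 and 17 counts in controls and 36, 24 and 29 counts in NICD1/Akt livers at 3 weeks. As background, H2-Ea is not transcribed in the H2b haplotype of C57BL/6 mice, and haplotypes differ in which H2-T and H2-Q genes they hold. All 12 labels give C57BL/6J. Control 32, with Ddx3y at 57.2 CPM as against 52.2 to 61.2 CPM in NICD1/Akt livers of 3 weeks, had the H2 levels of the other 2-week libraries (H2-Eb1 39.9, H2-T22 71.7 and H2-Bl 0.850 CPM, and 0 counts of H2-Ea-ps), so Ddx3y and the H2 pattern did not change together. Time, count table and the H2 pattern do, and cannot be told apart, so the comparisons within a stage come before those between stages.

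**Figure D1:**
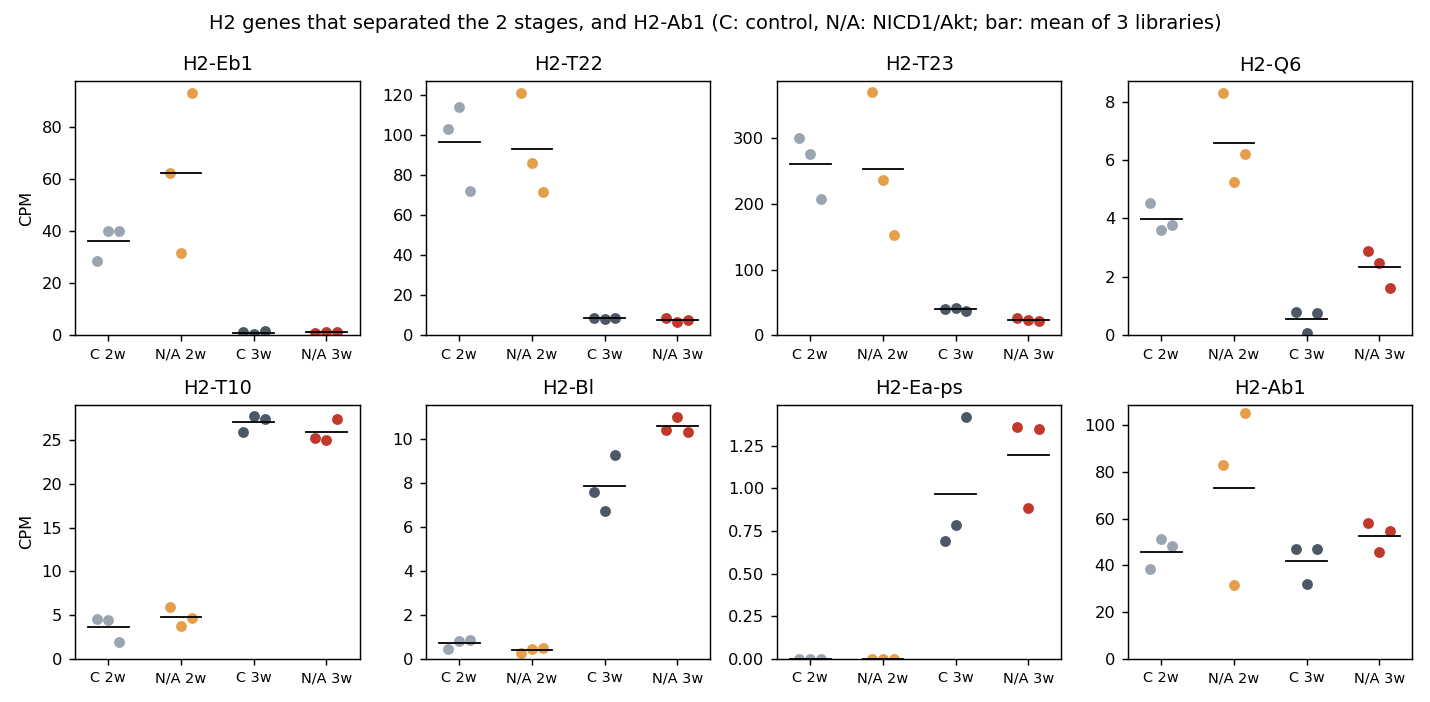
CPM of 7 H2 genes that separated the stages and of H2-Ab1, which did not, in every library, with time and model on the x axis, CPM from 0 on the y axis and a bar at the mean of 3 libraries. H2-Eb1, H2-T22, H2-T23 and H2-Q6 were lower, and H2-T10, H2-Bl and H2-Ea-ps higher, in all 6 libraries at 3 weeks than in all 6 at 2 weeks.

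At 3 weeks, all 4 genes that load class I or control it and 7 of 9 that load class II or control it were called higher in NICD1/Akt livers, whereas B2m and H2-Q10 were called lower and H2-K1 and H2-D1 were not called. Ciita stood 4.17-fold above controls on mean CPM, Tap1 3.23-fold and Ctss 2.16-fold, while H2-Q10 was 3.61-fold and B2m 1.86-fold lower. Of 39 members tested, 21 were called higher and 7 lower, against 38.9% of all 13408 genes called higher and 33.1% called lower, and 11 were not called. Among the 21 are H2-M2, H2-T3 and H2-Oa, each with at most 3 counts in all controls. They passed the filter on low counts through the NICD1/Akt libraries and could only be called higher. The same filter was applied to all genes. The median log2 fold change over the tested members was 0.53, against 0.06 over all genes. On CPM, the 3 NICD1/Akt libraries lay above the 3 controls for 21 members, against 36.8% of genes with at least 10 counts, and below them for 10, against 35.5%.

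These directions rest on the TMM scale. NICD1/Akt libraries at 3 weeks had larger TMM factors than controls, and scaling by library size alone moved the all-gene median from 0.06 to 0.77 on the log2 scale and the members' calls from 21 higher and 7 lower to 29 higher and 4 lower. H2-T23 and Rfxank, called lower with TMM, turned to 0.10 and 0.25 on the log2 scale with library size alone, and B2m was then at -0.07 and not called. H2-Q10, Cd1d1, Ctsl and H2-Ke6 were called lower on either scale.

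**Figure D2:**
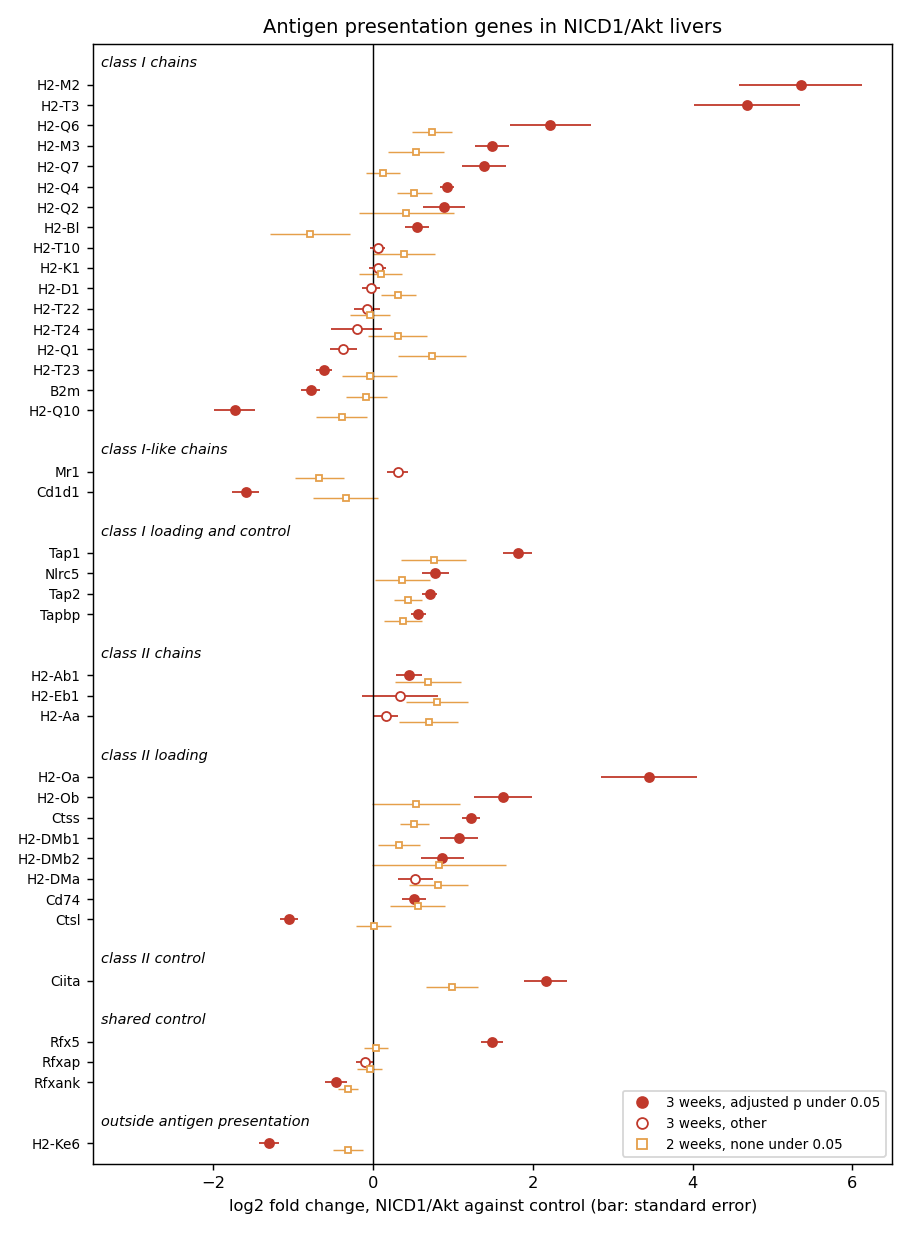
Log2 fold change of NICD1/Akt against control livers (x axis) for the 39 members tested at 3 weeks, grouped by role, with circles for 3 weeks, squares for 2 weeks and bars for the standard error. Filled circles are the 28 members called at 3 weeks, among them all 4 class I loading and control genes, and no member was called at 2 weeks.

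B2m and the classical chains made up most of the class I counts. Per kilobase of exon, B2m had the highest level of all members in every group (2043 CPM per kb in controls and 1097 in NICD1/Akt livers at 3 weeks), followed in controls at 3 weeks by H2-D1 (362), H2-Q10 (298) and H2-K1 (254). In CPM, B2m stood at 1786, 1742 and 1743 in controls and 964, 891 and 974 in NICD1/Akt livers at 3 weeks, without overlap (log2 fold change -0.78 ± 0.12 SE, adjusted p = 0.000454). H2-Q10, which encodes a secreted class I molecule made mainly by hepatocytes, stood at 1280, 1297 and 1315 CPM in control livers and at 437, 213 and 429 CPM in the NICD1/Akt livers (-1.73 ± 0.26, adjusted p = 0.000386). For either gene, all NICD1/Akt libraries lay below all controls.

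The classical chains H2-K1 and H2-D1, which present peptides to CD8+ T cells, were not called. H2-K1 stood at 762, 743 and 734 CPM in control livers and at 669, 730 and 748 CPM in the NICD1/Akt livers (0.06 ± 0.11, adjusted p = 0.651). H2-D1 stood at 968, 917 and 916 CPM in control livers and at 792, 894 and 857 CPM in the NICD1/Akt livers (-0.02 ± 0.11, adjusted p = 0.884). The H2-K1 groups overlapped, and the H2-D1 groups did not on the CPM scale of 12 libraries although the fit of the stage gave a fold change near 0. With library size alone, both were called higher, H2-K1 at 0.77 and H2-D1 at 0.69 on the log2 scale. H2-T23, the mouse Qa-1 chain that presents class I leader peptides to NK receptors, stood at 39.3, 41.2 and 37.5 CPM in control livers and 25.8, 23.7 and 21.6 CPM in the NICD1/Akt livers (-0.61 ± 0.10, adjusted p = 0.000546).

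Other non-classical class I genes were called higher from lower levels, with 8 of 17 class I chains tested called higher and 3 lower, against 38.9% and 33.1% of all genes. The 8 include H2-M2 and H2-T3, which were tested only through their counts in NICD1/Akt livers. H2-Q4 stood at 50.4, 52 and 52.3 CPM in control livers and at 85.3, 95.9 and 90.1 CPM in the NICD1/Akt livers at 3 weeks (0.93 ± 0.09, adjusted p = 2.95e-05). H2-Q7, of the Qa-2 group, stood at 2.50, 2.09 and 1.5 CPM against 4.36, 6.37 and 3.96 CPM (1.39 ± 0.28, adjusted p = 0.00215). For either gene every NICD1/Akt library was above every control. H2-Q6 was at 0.0871 to 0.776 CPM in control livers and 1.63 to 2.88 CPM in the NICD1/Akt livers, and H2-M3, which presents formylated peptides, at 1.57 to 2.50 against 5.30 to 5.45 CPM. H2-Q2 was at 1.90 to 3.67 against 4.55 to 5.67 CPM and H2-Bl at 6.70 to 9.25 against 10.3 to 11 CPM. H2-M2 and H2-T3, the thymus leukemia antigen of gut epithelium, rose from near 0: 2 counts in all controls against 181 in NICD1/Akt livers for H2-M2 (ratio 42.3, 95% counting interval 11.5 to 352) and 3 against 162 for H2-T3 (ratio 25.2, interval 8.48 to 124).

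The 6 class I chains that were not called at 3 weeks include H2-T22 (8.63, 8.18 and 8.67 CPM in controls against 8.52, 6.30 and 7.55) and H2-T10 (26.0, 27.8 and 27.5 against 25.3, 25.1 and 27.5). H2-Q1 stood at 5.35, 6.62 and 5.50 CPM against 4.36, 3.90 and 4.19 CPM. Overlap of the groups was seen for H2-T22, H2-T10 and H2-T24, and H2-Q1 was lower without overlap at an adjusted p of 0.0820. H2-Q5 and H2-M5 had too few counts at 3 weeks to be tested.

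Of the class I-like chains, Cd1d1, which presents lipids to NKT cells, fell from 150, 172 and 137 CPM in controls to 55.2, 35.8 and 49.9 CPM in the NICD1/Akt livers at 3 weeks (-1.59 ± 0.17, adjusted p = 6.30e-05). Mr1, which presents vitamin B2 metabolites to MAIT cells, was at 9.06, 9.66 and 9.75 CPM against 9.58, 11.1 and 11.8 CPM (0.31 ± 0.13, adjusted p = 0.0635). The groups did not overlap for Cd1d1 and overlapped for Mr1.

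All 4 class I loading and control genes were called higher at 3 weeks, against 38.9% of all genes. In each case every NICD1/Akt library was above every control, against 36.8% of genes with at least 10 counts. Tap1 stood at 10.6, 6.18 and 9.25 CPM in control livers and at 26.6, 30.6 and 27.1 CPM in the NICD1/Akt livers (1.81 ± 0.18, adjusted p = 4.38e-05). Tap2 stood at 35.6, 40.7 and 36.2 CPM against 54.3, 60.8 and 54.7 CPM (0.71 ± 0.09, adjusted p = 0.000186). Tap1 and Tap2 are the chains of 1 transporter. Tapbp stood at 79.4, 85.3 and 79.9 CPM against 105, 115 and 114 CPM (0.57 ± 0.09, adjusted p = 0.000491). Nlrc5 stood at 9.23, 7.40 and 10.6 CPM against 15.3, 15.6 and 12.2 CPM (0.78 ± 0.17, adjusted p = 0.00293). Nlrc5 lost its call when all 12 libraries were fitted together (0.66, adjusted p = 0.0702).

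**Figure D3:**
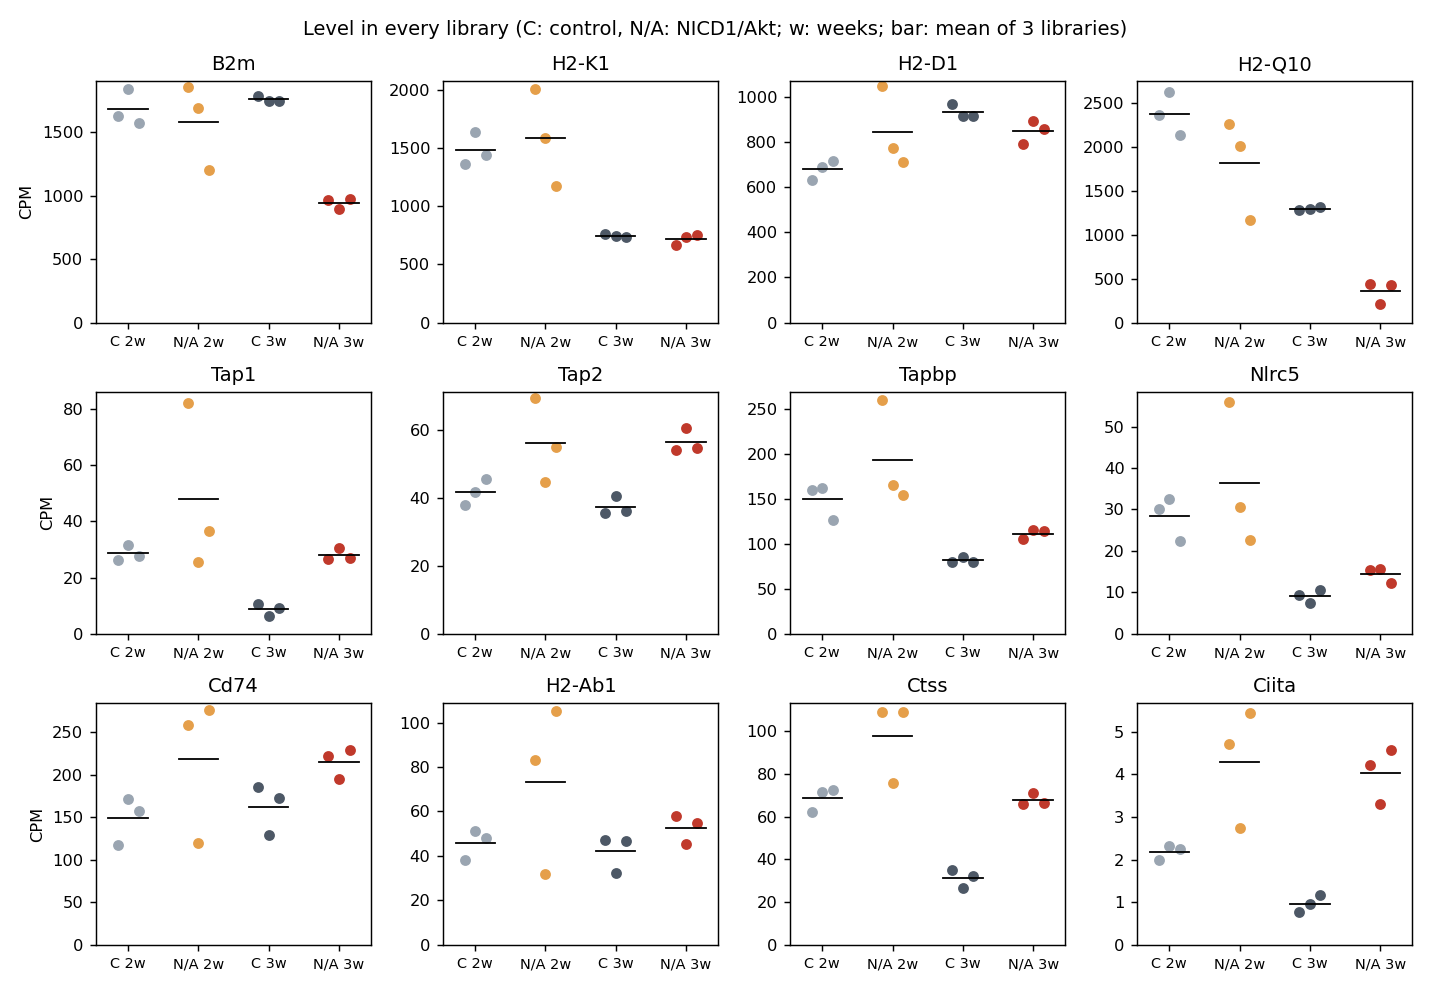
CPM of 12 members (4 class I chains, 4 class I loading and control genes, and 4 class II genes) in every library, with time and model on the x axis, CPM from 0 on the y axis of each panel and a bar at the mean of 3 libraries. At 3 weeks B2m and H2-Q10 were lower in NICD1/Akt livers, Tap1, Tap2, Tapbp, Nlrc5, Cd74, Ctss and Ciita higher without overlap, and H2-K1 and H2-Ab1 overlapped.

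Of 12 class II genes tested at 3 weeks, 8 were called higher and 1, Ctsl, lower, against 38.9% and 33.1% of all genes. The 8 include H2-Oa, which was tested only through its counts in NICD1/Akt livers. Ciita, the class II master switch, stood at 0.776, 0.958 and 1.17 CPM in control livers and at 4.21, 3.31 and 4.57 CPM in the NICD1/Akt livers (2.16 ± 0.27, adjusted p = 0.000139). The chains that it controls moved less. H2-Ab1 stood at 47.0, 32.2 and 46.8 CPM against 57.9, 45.5 and 54.8 CPM (0.45 ± 0.16, adjusted p = 0.0335), and its groups overlapped. H2-Aa stood at 60.1, 48.1 and 62.1 CPM against 69.6, 49.1 and 58.2 CPM (0.17 ± 0.15, adjusted p = 0.323). H2-Eb1, at most 1.42 CPM in all libraries of this stage, had 0.34 ± 0.48 (adjusted p = 0.548). H2-Ab1 lost its call without control 11 and also without NICD1/Akt 1 or 3. H2-Eb2 had 0 counts in all controls and 12 counts in NICD1/Akt livers, which is at least 1.87-fold higher taking 3 counts over the group as the floor.

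Cd74, the invariant chain, stood at 185, 129 and 173 CPM in control livers and at 222, 195 and 229 CPM in the NICD1/Akt livers at 3 weeks, without overlap (0.52 ± 0.15, adjusted p = 0.0119). In the fit of all 12 libraries 22 members were called at 3 weeks, and Cd74 (0.41, adjusted p = 0.216), H2-Ab1, H2-Bl, H2-DMb2, H2-Q2 and Nlrc5 lost their calls. The cathepsins that cut it went in opposite directions. Ctss, the cathepsin of antigen-presenting cells, rose from 35.2, 26.7 and 32.3 CPM to 66.0, 71.3 and 66.2 CPM (1.23 ± 0.11, adjusted p = 2.92e-05). Ctsl, which is active in most cell types, fell from 532, 476 and 554 CPM to 238, 238 and 219 CPM (-1.05 ± 0.11, adjusted p = 6.15e-05). Neither gene had overlapping groups.

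The peptide exchange genes were at low levels. H2-DMb1 was at 1.29 to 1.67 CPM in control livers and 2.61 to 3.14 CPM in the NICD1/Akt livers (1.08 ± 0.24, adjusted p = 0.00317), and H2-DMb2 at 1.00 to 1.47 against 1.82 to 2.16 CPM (0.87 ± 0.27, adjusted p = 0.0186). Their partner H2-DMa, at 4.49, 3.05 and 4.50 CPM against 5.87, 4.38 and 5.78 CPM, was not called (0.53 ± 0.22, adjusted p = 0.0592). H2-DMb2 lost its call without control 11, without control 12 or without NICD1/Akt 1. H2-Ob, a chain of the H2-O modulator, was at 0.345 to 0.834 CPM in controls against 1.49 to 1.66 CPM (1.63 ± 0.36, adjusted p = 0.00342). H2-Oa, its partner, had 3 counts in all controls and 70 in NICD1/Akt livers (ratio 10.9, 95% counting interval 3.58 to 54.2).

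The RFX subunits that serve both classes did not move together at 3 weeks. Rfx5 stood at 5.69, 6.01 and 5 CPM in control livers and at 13.2, 16.0 and 13.9 CPM in the NICD1/Akt livers (1.49 ± 0.14, adjusted p = 3.62e-05). Rfxank stood at 12.5, 14.6 and 12.8 CPM against 7.73, 9.54 and 9.46 CPM (-0.46 ± 0.14, adjusted p = 0.0156). Rfxap stood at 12.6, 11.8 and 12.1 CPM against 9.85, 10.8 and 10.8 CPM (-0.10 ± 0.11, adjusted p = 0.455). H2-Ke6, the dehydrogenase, stood at 76.2, 72.2 and 71.9 CPM against 27.8, 23.1 and 31.5 CPM (-1.30 ± 0.12, adjusted p = 2.77e-05).

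At 2 weeks no member was called in NICD1/Akt livers, and 0.0% of all 13041 genes were called by this test. Of 37 members tested, 4 were higher at an unadjusted p under 0.05 (H2-Q6, Tap2, Ciita and Ctss), against 4.90% of all genes, and 1 was lower (Rfxank), against 3.69%. DESeq2, limma-voom and the likelihood ratio test also called no member. The median log2 fold change over the members was 0.38, against 0.01 over all genes, and 0.12 without NICD1/Akt 33. The 3 NICD1/Akt libraries lay above the 3 controls for 4 members (H2-Q6, H2-Q5, Ciita and Ctss), against 7.31% of genes, and below them for 2 (H2-Ke6 and Rfxank), against 7.74%.

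Class II genes were at higher mean levels at 2 weeks, with a wide spread. All 11 class II genes tested had a positive log2 fold change, from 0.01 for Ctsl to 0.99 for Ciita, and their median was 0.69. Ciita stood at 2.00, 2.31 and 2.24 CPM in control livers and at 4.72, 2.74 and 5.43 CPM in the NICD1/Akt livers (0.99 ± 0.33, adjusted p = 0.520). Cd74 stood at 117, 172 and 157 CPM in control livers and at 258, 120 and 276 CPM in the NICD1/Akt livers (0.56 ± 0.34, adjusted p = 0.521). Libraries 33 and 35 were the high ones for both genes and library 34 stood nearest to controls. The same held for H2-Aa (34.9, 47.0 and 46.2 CPM against 78.1, 34.2 and 94.2) and for H2-Ab1 (38.2, 51.2 and 48.1 CPM against 83.1, 31.7 and 105). H2-DMa stood at 4.73, 5.55 and 4.79 CPM against 12.8, 4.66 and 8.93 CPM, and Ctss at 62.4, 71.6 and 72.4 CPM against 109, 75.7 and 109 CPM.

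Class I genes at 2 weeks split NICD1/Akt libraries in another way. Library 33 was the highest of the 6 for Tap1 (26.3, 31.7 and 27.7 CPM in controls against 82.2, 25.5 and 36.5), for Nlrc5 (30.1, 32.6 and 22.3 against 55.9, 30.7 and 22.7) and for Tapbp (160, 162 and 127 against 260, 166 and 154). Tap2 stood at 38.1, 41.9 and 45.8 CPM against 69.6, 44.7 and 55 CPM. Library 35, with the most Akt1, was the lowest of the 6 for B2m (1623, 1839 and 1575 CPM against 1854, 1689 and 1201), for H2-Q10 (2365, 2632 and 2139 against 2267, 2009 and 1166) and for H2-K1 (1365, 1635 and 1439 against 2006, 1580 and 1169). Library 35 was also the lowest for Cd1d1 (246, 241 and 120 CPM against 188, 208 and 82.5), where control 32 was low as well, and for Ctsl (598, 667 and 582 against 733, 647 and 471). H2-D1 stood at 632, 691 and 716 CPM against 1050, 773 and 712 CPM. The low place of library 35 rests in part on the TMM scale, where its factor was 1.306 against 0.834 to 0.986 in the other 2-week libraries. Its sum of H2-K1, H2-D1 and B2m was 3081 CPM with TMM, against 3621, 4165 and 3730 in controls. With library size alone that sum was 4022 CPM, against 3098, 3475 and 3676 in controls.

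Among the other members above 5 CPM, the groups at 2 weeks overlapped for H2-T23 (301, 276 and 207 CPM in controls against 370, 236 and 152), H2-T22 (103, 114 and 71.7 against 121, 86.0 and 71.5) and H2-Q4 (49.1, 59.2 and 51 against 95, 52.9 and 79.6). They also overlapped for H2-T10 (4.59, 4.47 and 1.93 CPM against 5.98, 3.70 and 4.64), H2-Q1 (12.8, 34.3 and 10.6 against 35.4, 32 and 28.8) and H2-Q7 (17.8, 21.1 and 19.6 against 28.1, 17.4 and 18.3). Mr1 stood at 8.72, 15.5 and 8.11 CPM against 6.11, 5.77 and 8.26 CPM. Rfx5 (13.2, 15.4 and 14.9 CPM against 15.3, 12.9 and 16.2) and Rfxap (12, 10.9 and 9.89 against 9.76, 11.5 and 10.4) overlapped too. Rfxank was lower without overlap (22.3, 24.7 and 19.5 CPM against 18.7, 17.7 and 17.0), and so was H2-Ke6 (59.5, 66.5 and 61.6 against 57.1, 57.6 and 35.8). H2-T3 had 2 counts in controls and 20 in NICD1/Akt livers (ratio 7.75, 95% counting interval 1.88 to 68.4).

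Without control 32, again no member was called at 2 weeks. At an unadjusted p under 0.05, 2 were then higher and 2 lower, the median over members was 0.35, and 10 of 11 class II genes had a positive log2 fold change (median 0.73). Ciita then had 1.01 ± 0.41 (adjusted p = 0.271), Cd74 0.60 ± 0.41 (adjusted p = 0.454) and Ctss 0.56 ± 0.22 (adjusted p = 0.267).

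The effects of NICD1/Akt at 3 and at 2 weeks were compared in a fit of all 12 libraries, where 7 of 40 members differed. The effect was larger at 3 weeks for Rfx5 (difference 1.34, adjusted p = 0.00209), H2-Q7 (1.15, adjusted p = 0.0347) and H2-Bl (1.22, adjusted p = 0.0350), against 15.0% of all genes higher. It was lower at 3 weeks for Ctsl (-1.17, adjusted p = 0.00737), H2-Ke6 (-1.10, adjusted p = 0.0112), H2-Q10 (-1.46, adjusted p = 0.0281) and B2m (-0.81, adjusted p = 0.0367), against 15.8% lower. Both shares of members lie below those of all genes. Without control 32 the difference held for 3 of them, Rfx5 (1.33, adjusted p = 0.00483), Ctsl (-1.11, adjusted p = 0.0155) and H2-Ke6 (-1.07, adjusted p = 0.0207). With library size alone, H2-Ke6 (-0.45, adjusted p = 0.058), H2-Q10 (-0.81, adjusted p = 0.0624) and B2m (-0.17, adjusted p = 0.386) were not called. For Ciita the difference of 1.06 was not called (adjusted p = 0.0677, and 0.118 without control 32).

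Between the stages, more members were lower at 3 weeks than higher. In controls 3 of 40 members were called higher at 3 weeks (H2-T10, H2-Bl and H2-D1), against 17.4% of genes, and 19 lower, against 20.4%. In NICD1/Akt livers 5 were called higher, against 11.1%, and 19 lower, against 17.4%. H2-M2, H2-Q2 and H2-T3 were among the 5 and lost their calls without NICD1/Akt 33, 34, 2 or 3, which left 2 (H2-T10 and H2-Bl). In controls, H2-D1 lost its call without any 1 of the 6 control libraries. The largest differences in controls were those of H2-Eb1 (-5.25), H2-Q5 (-3.52), H2-T22 (-3.5) and H2-Bl (3.48), and in NICD1/Akt livers these genes had -5.82, -3.5, -3.64 and 4.70, all called. Ciita was lower at 3 weeks in controls (-1.17, adjusted p = 0.0136), whereas in NICD1/Akt livers its values of 2.74 to 5.43 CPM at 2 weeks and 3.31 to 4.57 CPM at 3 weeks overlapped (-0.10, adjusted p = 0.792). Tap1 and Rfx5 likewise fell in controls (-1.72, adjusted p = 0.00470, and -1.38, adjusted p = 6.91e-05), with -0.77 (adjusted p = 0.115) and -0.04 (adjusted p = 0.825) in NICD1/Akt livers. When the NICD1/Akt livers of 3 weeks were set against all 6 controls, 16 members were called, and 12 lost their call, among them Tap1, Tapbp, Nlrc5, Ctss and Rfx5. Ciita, Cd74 and Tap2 were still called higher.

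Class II was set against class I within each library, a ratio that no scaling changes. The 13 class II genes summed to 16.6, 13.9 and 17.1 CPM for each 100 CPM of the 25 class I genes in controls at 3 weeks and to 20.3, 19.3 and 18.6 in NICD1/Akt livers. The mean was 15.9 ± 1.71 in controls and 19.4 ± 0.849 in NICD1/Akt livers (SD, n = 3), which is 1.22-fold higher without overlap. On the TMM scale the class II total was itself lower with NICD1/Akt, with a mean of 644 against 823 CPM (0.783-fold). The class I total was lower by more, 3321 against 5184 CPM (0.641-fold), and neither total overlapped between groups. The higher ratio is thus no gain of this 13-gene class II total on that scale. Scaled by library size alone, both totals were higher with NICD1/Akt, 1.38-fold for class II and 1.13-fold for class I. At 2 weeks the ratio was 12.7, 13.5 and 14.5 in controls and 15.9, 13.6 and 23.5 in NICD1/Akt livers, with overlap. H2-Q10 and Ctsl weigh heavily in these sums. They were also left out, a choice made after seeing the data. On the TMM scale the class II sum at 3 weeks was then 413 CPM with NICD1/Akt and 302 CPM in controls. That is 1.37-fold higher without overlap, while the class I sum was 0.762-fold.

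With only H2-Aa, H2-Ab1, H2-Eb1 and Cd74 set against H2-K1, H2-D1 and B2m, the ratio at 3 weeks was 7.62 ± 1.26 in controls and 13.1 ± 1.45 in NICD1/Akt livers, 1.72-fold higher. On the TMM scale the sum of these class I genes was 3437 ± 68.6 CPM in control livers and 2507 ± 77.8 CPM in the NICD1/Akt livers, without overlap, and the class II sum was 262 ± 45.6 and 328 ± 32.3 CPM, with overlap. With library size in place of TMM, both sums were higher in NICD1/Akt livers, 1.29-fold for class I and 2.21-fold for class II.

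**Figure D4:**
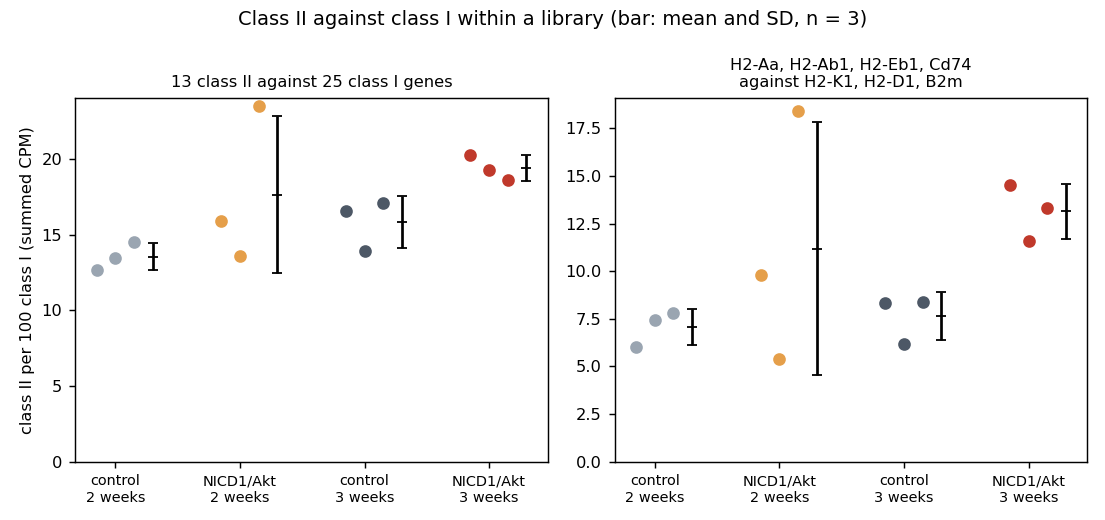
Summed CPM of class II genes for each 100 CPM of class I genes in every library, for all 38 genes of both classes (left) and for the classical chains with their partners (right), with time and model on the x axis and bars for the mean and SD of 3 libraries. At 3 weeks all NICD1/Akt libraries were above all controls in both panels, and at 2 weeks library 35 was the highest of all 12.

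Other genes of the pathway were read from lists, in which values are given for genes among the 4 with the highest mean level, and any other gene was named, with or without values, after its values were seen. Of 10 genes that supply peptides to class I, 3 were called higher at 3 weeks (Psmb8, Psmb9 and Psme2) and 5 lower (Calr, Pdia3, Canx, Erap1 and Psmb10). The immunoproteasome subunit gene Psmb9 stood at 9.66 ± 1.69 CPM in control livers and 19.5 ± 2.86 CPM in the NICD1/Akt livers (log2 fold change 1.13, adjusted p = 0.000348), and Psmb8 at 24.2 ± 2.86 and 44.0 ± 2.7 CPM (0.98, adjusted p = 8.00e-05). The other inducible catalytic subunit gene, Psmb10, was lower, at 30.4 ± 1.72 and 18.8 ± 0.656 CPM (-0.57, adjusted p = 0.000520). All 3 encode subunits that replace those of the standard proteasome under interferon. The chaperones of the loading complex were lower on the TMM scale, with Calr at -0.49 (adjusted p = 0.0102), Pdia3 at -0.44 (adjusted p = 0.0136) and Canx at -0.36 (adjusted p = 0.0134). The trimming peptidase gene Erap1 was lower as well (-0.28, adjusted p = 0.0175). Falls of this size are smaller than the shift of the all-gene median with library size alone, from 0.06 to 0.77. The list gave 5 calls with upper quartile factors and 2 with all 6 controls.

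Of 8 vesicle and peptide genes of the class II route in the table, 3 were higher at 3 weeks (Ifi30, Lgmn and March1) and 3 lower (Ctsb, Ctsh and Ctsc). The lysosomal protease genes Ctsb (-0.34, adjusted p = 0.0174), Ctsh (-0.51, adjusted p = 0.00491) and Ctsc (-0.22, adjusted p = 0.0458) fell, and Ctsd had -0.15 (adjusted p = 0.158). Of 9 partners at the X and Y boxes, 6 were higher and 2 lower. Nfyb, a subunit of NF-Y, was at 55.4 ± 13.1 CPM in control livers and 20.9 ± 2.62 CPM in the NICD1/Akt livers (-1.29, adjusted p = 0.000250), Atf1 fell (-0.67, adjusted p = 0.000614), and Creb1 (0.38, adjusted p = 0.00769) and Rfx7 (0.68, adjusted p = 0.00166) rose.

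Of 7 tested class I-like genes outside the H2 names, 3 were lower (Azgp1, Fcgrt and Hfe) and 2 higher (Ulbp1 and Procr). Ulbp1, a ligand of the NK receptor NKG2D, was at 0.0834 to 0.0871 CPM in control livers and 12.2 to 18.5 CPM in the NICD1/Akt livers at 3 weeks (7.48, adjusted p = 8.61e-07). Those control levels are at the floor, as 1 count in control 12 is 0.0834 CPM, so the size of this fold change is uncertain. Fcgrt, the neonatal Fc receptor chain that pairs with B2m, was at 177 ± 3.71 and 84.6 ± 21.2 CPM (-0.95, adjusted p = 0.00135), and Hfe, the iron regulator that also pairs with B2m, at 41 ± 3.88 and 19.6 ± 3.59 CPM (-0.94, adjusted p = 0.000456).

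Of 9 interferon gamma signalling genes tested at 3 weeks, 3 were higher and 3 lower. The receptor chain gene Ifngr1 was higher (0.58, adjusted p = 0.0431) and the kinase gene Jak1 was lower (-0.66, adjusted p = 0.000534). Irf2 was at 90.3 ± 8.24 and 67.7 ± 10.5 CPM (-0.30, adjusted p = 0.0710). Ifng itself had too few counts to be tested. Of 7 costimulatory and checkpoint ligands tested, 4 were higher and 0 lower, with Cd276 at 3.43 (adjusted p = 6.52e-07), Icosl at 0.72 (adjusted p = 0.0337), Cd86 at 0.33 (adjusted p = 0.224) and Cd274, the gene of PD-L1, at -0.02 (adjusted p = 0.943). The calls of these lists are read against the same 38.9% higher and 33.1% lower, and their directions rest on the TMM scale as those of the members do. At 2 weeks 0 genes of the 6 lists were called, at list medians of -0.30 to 0.34.

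Markers of immune cells moved in both directions at 3 weeks. Their calls stand beside 38.9% of all genes called higher and 33.1% lower, and rest on the TMM scale. The 4 common leukocyte markers were all called higher, with a sum of 34.6 to 48.0 CPM in control livers and 84.4 to 91.0 CPM in the NICD1/Akt livers, and 8 of 9 monocyte and macrophage markers were higher, with a sum of 102 to 141 against 317 to 473 CPM. All 6 Kupffer cell markers were lower, with a sum of 195 to 267 against 97.4 to 118 CPM. With library size alone this list gave 2 calls. Of 5 dendritic cell markers tested, 3 were higher (Itgax, Flt3 and Siglech), with a sum of 10.5 to 14.8 CPM for all 9 markers in controls and 23.3 to 24.5 CPM in the NICD1/Akt livers, and Xcr1 was at 0 CPM in controls. Itgax alone went from 0.995 ± 0.239 to 8.42 ± 0.698 CPM. Clec9a went the other way, from 2.44 ± 0.732 to 1.20 ± 0.572 CPM (-0.90, adjusted p = 0.0665), and Zbtb46 had 0.50 (adjusted p = 0.0745). B cell and plasma cell markers summed to 2.07 to 2.25 CPM in control livers and 4.17 to 5.54 CPM in the NICD1/Akt livers, with 1 of 2 tested higher. T cell and NK cell markers summed to 6.25 to 7.42 against 4.58 to 5.87 CPM, with 1 of 2 tested lower. That gene, Cd4, fell from 4.46 ± 0.847 to 2.28 ± 0.278 CPM (-0.85, adjusted p = 0.00828), while Cd3e had 0.0 (adjusted p = 0.997). The lower sum rests on Cd4, the marker with the highest mean. Of the others, all at low levels, Cd3e, Cd3d and Nkg7 had lower means and Cd3g, Cd8a, Klrb1c and Ncr1 higher ones. This list gave 0 calls with library size alone, with all 12 libraries in 1 fit and with all 6 controls.

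Hepatocyte and biliary markers moved in opposite directions, in counts that stand beside the same 38.9% higher and 33.1% lower. The 7 hepatocyte markers were all lower at 3 weeks, with Alb at -1.71 (adjusted p = 0.000468) beside the -1.73 of H2-Q10, and all 6 cholangiocyte markers were higher, with a sum of 73.5 to 116 CPM in control livers and 3418 to 4030 CPM in the NICD1/Akt livers. Of 5 sinusoidal endothelium markers, 2 were lower (Stab2 and Clec4g) and 0 higher. At 2 weeks no gene of the 9 cell type lists was called. Hepatocyte markers summed to 60533 CPM in library 35 and 94414 CPM in control 32, against 138160 to 166864 CPM in the other libraries of that stage, and library 35 had the highest dendritic cell marker sum (38.8 CPM), beside its class II ratio of 23.5. The part of these cell markers in the members' values was not tested.

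**Figure D5:**
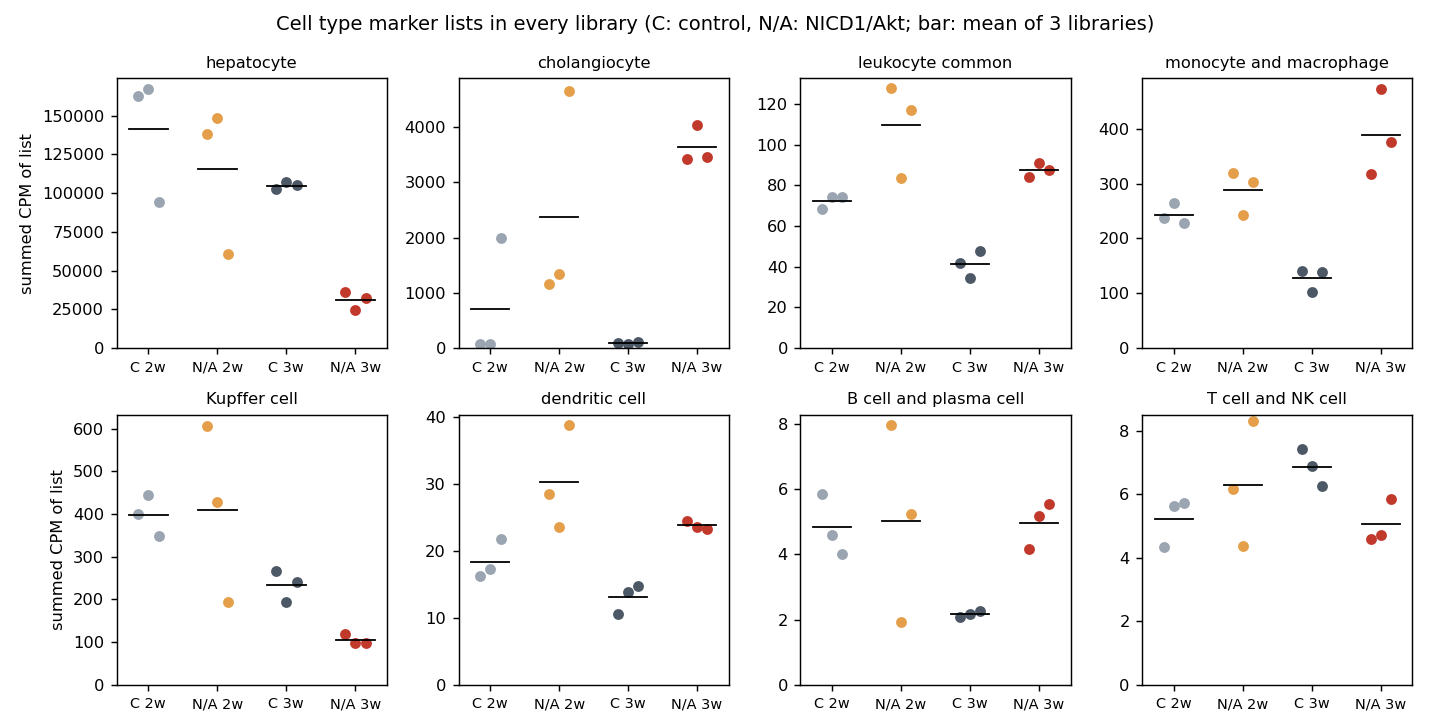
Summed CPM of 8 cell type marker lists in every library, with time and model on the x axis, summed CPM from 0 on the y axis of each panel and a bar at the mean of 3 libraries. At 3 weeks the hepatocyte, Kupffer cell and T cell sums were lower in NICD1/Akt livers without overlap. The T cell sum rests on Cd4, the only marker of that list called. The cholangiocyte, leukocyte, monocyte, dendritic cell and B cell sums were higher without overlap. Control 32 stood with NICD1/Akt livers for cholangiocyte markers.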

How the data were processed

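Liver RNA of 12 libraries was sequenced from Illumina stranded mRNA libraries, and the authors deposited whole-number gene counts that were not normalized. The methods name mm10, STAR and HTSeq, whereas the submitters' processing notes list GRCm39, STAR 2.7 and Subread 2.0.6, so the build of the counts is not settled and no gene coordinates are given from them. Promoter windows are from RefSeq on GRCm38.p6. Symbols were found for 21573 of 21807 gene IDs. Members and lists were chosen with earlier results of these data known.

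Counts were tested with edgeR 4.0.16 (R 4.3.3) by the quasi-likelihood test with TMM factors and the edgeR filter on low counts, in the 6 libraries of each stage, and in all 12 libraries for the difference between effects and for stages. Standard errors are the log2 fold change over the square root of F. P-values were Benjamini-Hochberg adjusted over all genes tested and called under 0.05. Depth was 13136892 to 19594839 counts per library, and intervals cover counting error only. The script was tested on simulated counts. Alternatives were DESeq2 1.42.0, limma-voom (limma 3.58.1), the likelihood ratio test, other scale factors, filters and controls, and leaving out each library. Members with a mean of at least 5 CPM are given in every library, called members below that by range, and the others by counts. Group labels share no replicate numbers.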

Additional observations from a re-analysis of the deposited data

Results flagged for a closer look

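For 7 members the effect of NICD1/Akt at 3 weeks differed from that at 2 weeks by a test of the difference itself, in edgeR's quasi-likelihood fit of all 12 libraries. The log2 difference was 1.34 for Rfx5 (adjusted p = 0.00209), 1.22 for H2-Bl (adjusted p = 0.0350) and 1.15 for H2-Q7 (adjusted p = 0.0347). It was -0.81 for B2m (adjusted p = 0.0367), -1.10 for H2-Ke6 (adjusted p = 0.0112), -1.17 for Ctsl (adjusted p = 0.00737) and -1.46 for H2-Q10 (adjusted p = 0.0281). Control 32, which carries Akt1 and cholangiocyte marker RNA against its label, enters each of these values, and without it Rfx5 (1.33), Ctsl (-1.11) and H2-Ke6 (-1.07) were still called. With library size alone, H2-Ke6 (-0.45), H2-Q10 (-0.81) and B2m (-0.17) lost their calls. When a library was left out, B2m kept its call only without control 31 or without NICD1/Akt 35.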

How the results depend on the processing

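Of the 28 members called at 3 weeks, DESeq2, limma-voom, the likelihood ratio test, RLE factors and no filter on low counts kept all 28. With all 6 controls 16 were called, and with an added minimum of 1 on the absolute log2 fold change also 16, while leaving out a library gave 26 to 29. At 2 weeks 5 members had an unadjusted p under 0.05, and leaving out a library gave 0 calls each time. The difference between effects was called for 12 members at an unadjusted p, and for 3 to 14 when a library was left out: 3 without control 32 or control 11, 4 without control 10, control 12, NICD1/Akt 2 or NICD1/Akt 34, and 14 without NICD1/Akt 35. The class II to class I ratio of NICD1/Akt over control at 3 weeks was 1.15 to 1.27 when a library was left out, 1.72 with classical chains and partners, 1.68 with chains only and 1.80 without H2-Q10 and Ctsl, the last chosen after seeing the data. At 2 weeks it was 1.08 to 1.45 and, with chains only, 1.91. The 6 pathway lists gave 20 calls at 3 weeks with all 6 controls and 26 to 35 when a library was left out, and at 2 weeks DESeq2 and the likelihood ratio test gave 1 call each.

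The sign of the log2 fold change at 3 weeks turned with library size alone for H2-D1 (0.69), H2-Q1 (0.34), H2-T22 (0.63), H2-T23 (0.10), H2-T24 (0.49), Rfxank (0.25) and Rfxap (0.61). With upper quartile factors it turned for H2-D1 (0.14), H2-T22 (0.08) and Rfxap (0.06), and with a stricter filter H2-D1 was at 0.00. With all 6 controls it turned for H2-D1 (0.07), H2-K1 (-0.64), H2-Q7 (-1.14), Nlrc5 (-0.38), Tapbp (-0.06) and H2-Eb1 (-4.07), and at 2 weeks for Rfxank (0.02). With all 12 libraries in 1 fit H2-K1 and H2-T10 were at -0.06. Leaving out a library turned H2-D1 (-0.07 to 0.02), H2-T22 (-0.18 to 0.03) and H2-Eb1 (-0.10 to 0.77, the lowest without control 11). The cause was not tested. No paired analysis was possible because the groups share no replicate numbers.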
